A study of Rattus norvegicus with 12 samples.

Results

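Dnmt1 (ENSRNOG00000039859), Dnmt3a (ENSRNOG00000026649) and Dnmt3b (ENSRNOG00000010625) encode DNA methyltransferases, and they are described here as 3 genes of 29516 gene identifiers. They were chosen by identifier, as the enzymes that zebularine inhibits, and not by their level or response, although earlier results of these data were known. The libraries hold RNA from the preoptic area, a forebrain region, of newborn male and female rats that received zebularine or vehicle (0.1% "DNMSO", as the labels spell it, in saline) on postnatal days 0 and 1, with tissue taken on postnatal day 2. Each of the 4 combinations of sex and treatment has 3 of the 12 libraries. Their depth, as the reads recovered and summed over genes, was between 15851408 and 30474398, a 1.92-fold range, with the lowest and the highest both in zebularine males. The labels give no strain, dose or route, and do not say whether libraries stand for separate animals or for pools, so the p-values rest on a spread between libraries that may be technical. The pairing of the 3 identifiers with symbols was given with the choice of genes and could not be checked here, since the files hold identifiers only and the name table used here matched 0 of them. For the same reason the preoptic area could not be checked against marker genes, and other genes of the methylation pathway are not analysed here.

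DNA methyltransferases add a methyl group to cytosine, mostly where it is followed by guanine (a CpG site). Dnmt1 copies existing methylation onto the new strand after DNA replication, while Dnmt3a and Dnmt3b set methylation on DNA that has none. In brain, Dnmt1 and Dnmt3a are also expressed in neurons that no longer divide, and Dnmt3b is known mainly from early embryonic and dividing cells. Zebularine is a cytidine analogue that, once incorporated into DNA, traps these enzymes on it. It acts on the proteins, so transcript levels are not a readout of the inhibition, and no protein, enzyme activity or DNA methylation was measured in these libraries. The title of the series asks about inhibition of these enzymes in the neonatal preoptic area. The comparisons below ask whether their transcripts differed with the treatment or between the sexes.

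RefSeq start-site windows (assembly GRCr8, 250 bases before to 50 bases after the start) were found for Dnmt1 and Dnmt3a, and are shown because CpG sites are the substrate of the encoded enzymes. Each is printed 5′ to 3′ on the gene's strand with every CG in capitals. The Dnmt1 window is chr8:27762792-27763091 on the minus strand and the Dnmt3a window chr6:32598352-32598651 on the plus strand.
Dnmt1: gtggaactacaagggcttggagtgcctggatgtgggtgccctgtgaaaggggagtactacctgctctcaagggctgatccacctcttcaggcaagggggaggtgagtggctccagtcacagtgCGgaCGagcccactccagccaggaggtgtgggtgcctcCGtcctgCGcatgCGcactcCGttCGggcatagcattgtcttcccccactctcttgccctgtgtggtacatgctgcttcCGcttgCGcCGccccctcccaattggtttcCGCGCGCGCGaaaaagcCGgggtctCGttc
Dnmt3a: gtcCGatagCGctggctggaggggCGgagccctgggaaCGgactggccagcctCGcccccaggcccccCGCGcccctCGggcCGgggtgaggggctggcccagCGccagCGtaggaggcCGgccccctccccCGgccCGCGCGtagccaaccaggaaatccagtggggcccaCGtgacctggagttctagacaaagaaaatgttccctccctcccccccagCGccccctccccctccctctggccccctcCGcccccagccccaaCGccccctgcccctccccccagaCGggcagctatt
The Dnmt1 window held 17 CG and the Dnmt3a window 21, where the median of 33469 windows of the same length was 7. At least 17 CG were found in 29.0% of all windows and at least 21 in 22.6%. CG reads the same on both strands, so each count covers both. These letters describe the reference only, since methylation was not measured.

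Dnmt3a had the highest level per length of the 3 genes, at 28.4 RPKM (reads per kilobase of gene model, relative to the reads of the library) on average over the 12 libraries. Dnmt1 averaged 7.18 RPKM and Dnmt3b 0.636 RPKM. The genes tested were the 16310 that reached 0.5 RPKM in 3 or more libraries. Among them these levels lay at percentile 81.0 for Dnmt3a, 46.9 for Dnmt1 and 6.61 for Dnmt3b. All 3 genes passed that filter, Dnmt3b with 11 of its 12 libraries at or above 0.5 RPKM. Of the RPKM summed over the 3 genes, Dnmt3a made up 78.4% ± 1.00, Dnmt1 19.9% ± 0.903 and Dnmt3b 1.76% ± 0.243 (SD, n = 12). Within a library the Dnmt3a level was between 3.42 and 4.25 times the Dnmt1 level, with a median of 3.99, and between 37.3 and 62.7 times the Dnmt3b level, with a median of 43.3.

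The order of Dnmt3a and Dnmt1 rested on the gene model lengths used for RPKM. The steps between the deposited values gave the reads behind them, and with those the lengths: 23446 bases for Dnmt1, 4860 for Dnmt3a and 12621 for Dnmt3b, against a median of 2019 over the tested genes. The Dnmt1 length lay at percentile 99.1 of the tested genes and the Dnmt3b length at percentile 96.1. In reads, Dnmt1 was the higher of the pair in every one of the 12 libraries, with a mean of 4053 reads against 3321 for Dnmt3a, and a Dnmt3a to Dnmt1 ratio of reads between 0.709 and 0.880. Dnmt3b had a mean of 193 reads. Whether the long models of Dnmt1 and Dnmt3b add up several transcripts or hold introns was not tested, so the RPKM order between genes depends on them, while a comparison of 1 gene between libraries does not. RefSeq lists 12 transcripts of Dnmt3a, 2 of Dnmt1 and 1 of Dnmt3b, and the gene-level value cannot tell transcripts of 1 gene apart. RefSeq also lists 3 pseudogenes of Dnmt3a and 2 of Dnmt3b, of which Dnmt3b-ps1 overlaps the Dnmt3b locus, and reads of such copies may be split with the genes, most of all for the low Dnmt3b.

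**Figure D1:**
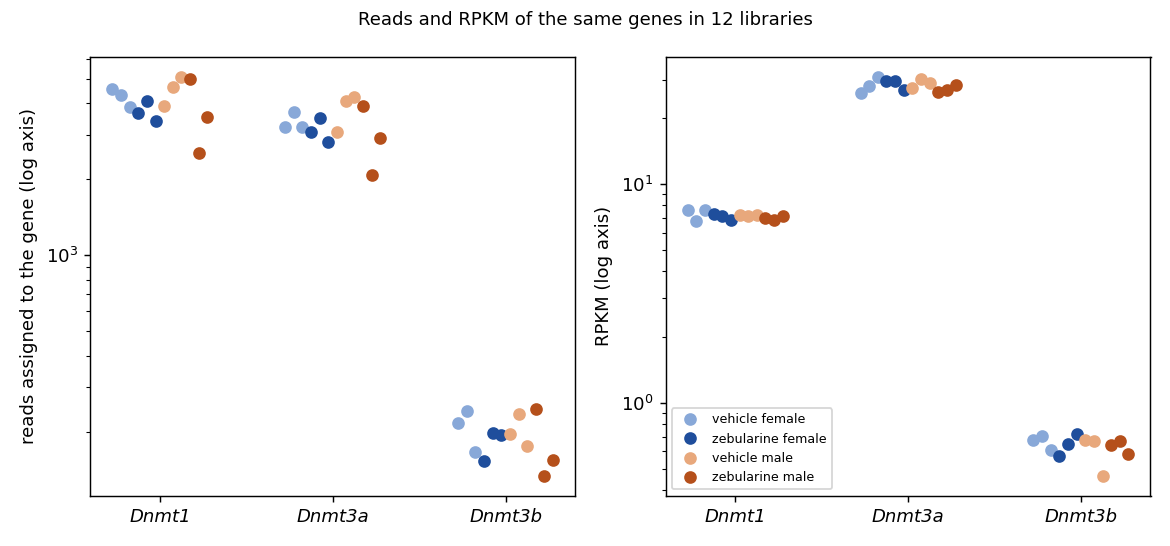
Reads assigned to each gene (left) and RPKM (right) in the 12 libraries, both on log axes, with 1 point per library coloured by group. Dnmt1 lies above Dnmt3a in reads (means of 4053 and 3321) and below it in RPKM (means of 7.18 and 28.4), and Dnmt3b is lowest on both.

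Dnmt1, the maintenance enzyme, was close to level over the libraries, from 6.78 to 7.63 RPKM, a 1.12-fold range. Vehicle females stood at 7.62, 6.78 and 7.63 RPKM in replicates 1, 2 and 3. Zebularine females stood at 7.34, 7.19 and 6.82 RPKM. Both the lowest library and the highest of all 12 were vehicle females, so the treated females lay inside their range. Vehicle males stood at 7.24, 7.17 and 7.24 RPKM, and zebularine males at 7.02, 6.86 and 7.19 RPKM. The vehicle males were the tightest group, and the treated males lay lower except that their replicate 3 exceeded vehicle male replicate 2. The means ran in the order vehicle females (7.34 ± 0.485), vehicle males (7.22 ± 0.0415), zebularine females (7.12 ± 0.264) and zebularine males (7.02 ± 0.164 RPKM, SD, n = 3 each). No neighbours in that order differed by more than the larger of their SDs, nor did its ends, 0.322 RPKM apart. Vehicle and zebularine males, which are not neighbours in it, differed by more than their larger SD of 0.164 RPKM, and their libraries overlapped.

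Dnmt3a, a de novo enzyme, ranged from 26.1 to 30.9 RPKM, a 1.18-fold range. Vehicle females stood at 26.1, 28.1 and 30.9 RPKM, again spanning all other libraries. Zebularine females stood at 29.8, 29.7 and 27.0 RPKM, with replicate 3 below the other two. Vehicle males stood at 27.6, 30.4 and 29.1 RPKM. Zebularine males stood at 26.4, 26.9 and 28.5 RPKM, and 1 of them lay above the lowest vehicle male. The group means were 29.0 ± 1.40 in vehicle males, 28.8 ± 1.62 in zebularine females, 28.3 ± 2.42 in vehicle females and 27.3 ± 1.12 RPKM in zebularine males (SD, n = 3 each). Neighbouring groups did not differ beyond their SDs. The ends of the order, vehicle and zebularine males, lay 1.78 RPKM apart, more than the larger SD of 1.40 RPKM, and their libraries overlapped.

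Dnmt3b, the other de novo enzyme, was low, from 0.463 to 0.723 RPKM on between 134 and 246 reads, a 1.56-fold range. Vehicle females stood at 0.673, 0.707 and 0.610 RPKM, and zebularine females at 0.569, 0.649 and 0.723 RPKM. Vehicle males stood at 0.675, 0.671 and 0.463 RPKM, and zebularine males at 0.640, 0.670 and 0.580 RPKM. The lowest of the 12 libraries, vehicle male replicate 3, stood alone within its group, and the highest was zebularine female replicate 3. The means were 0.663 ± 0.0492 in vehicle females, 0.647 ± 0.0767 in zebularine females, 0.630 ± 0.0457 in zebularine males and 0.603 ± 0.121 RPKM in vehicle males (SD, n = 3 each). The ends of this order differed by 0.0602 RPKM, less than the larger SD.

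**Figure D2:**
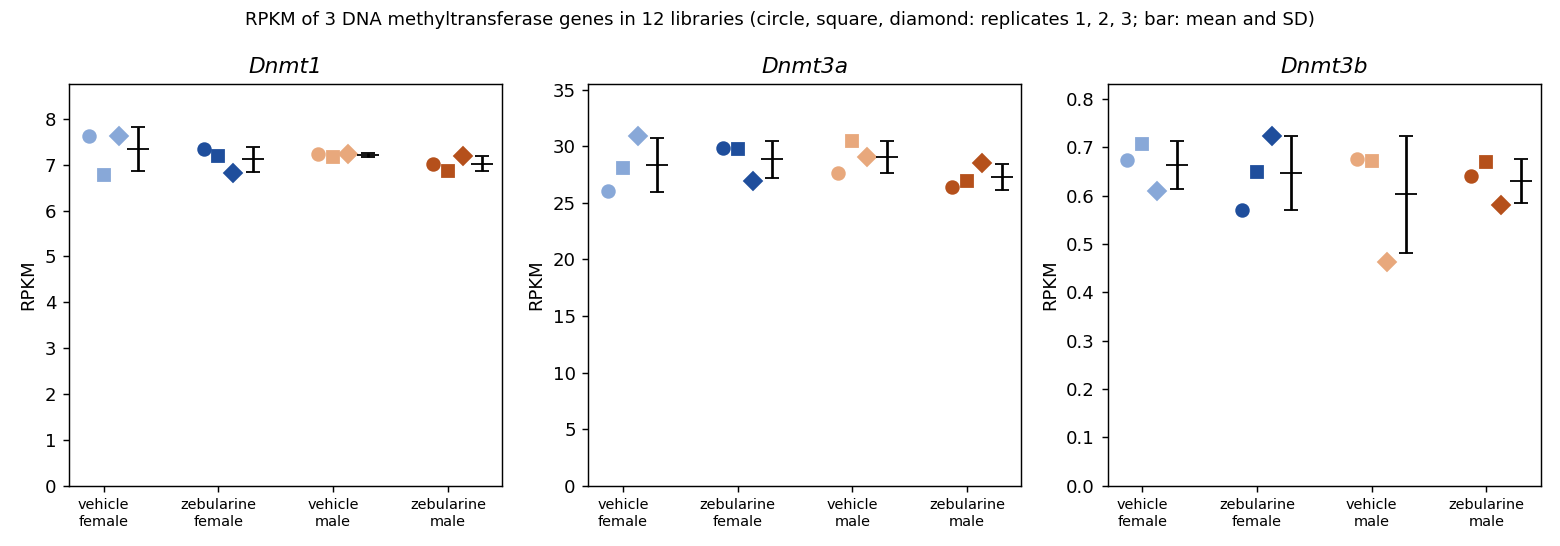
RPKM of Dnmt1, Dnmt3a and Dnmt3b in each library by group, on linear axes from 0; the marker shape gives the replicate number and the black bar the group mean and SD (n = 3). Treated and vehicle libraries of each sex overlap for all 3 genes, with vehicle female replicates spanning 6.78 to 7.63 RPKM for Dnmt1.

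The spread over the 12 libraries was small for Dnmt1 and Dnmt3a relative to their means, but not relative to counting error. The coefficient of variation of RPKM was 3.85% for Dnmt1, 5.73% for Dnmt3a and 11.2% for Dnmt3b, against a median of 10.7% over the tested genes, and lay at percentiles 2.63, 13.7 and 52.4 of them. Counting error alone would give 1.57%, 1.74% and 7.21% at the mean reads of each gene. The chi-square of the reads per degree of freedom, which counting error alone would hold near 1, was 5.76 for Dnmt1, 11.0 for Dnmt3a and 2.70 for Dnmt3b, so the libraries differed beyond it. The median over the tested genes was 4.62, and the 3 genes lay at percentiles 57.3, 75.0 and 31.5 of this value in the same order. In mean reads they lay at percentiles 92.4, 90.1 and 33.9, and counting error is smaller at more reads.

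No difference between zebularine and vehicle libraries passed the test for Dnmt1, Dnmt3a or Dnmt3b. Differences were tested with limma on log2(RPKM + 0.5) over all tested genes, two-sided, with Benjamini-Hochberg adjustment. Over both sexes, 0 of the 3 genes passed an adjusted p of 0.05, where 0.405% of all tested genes passed, and 0 had an unadjusted p under 0.05, where 7.56% of all did. Limma-voom on the recovered reads called 0 of the 3 here, against 0.503% of all, and 0 of the 3 in each of the other comparisons below. There it called few of all 16310 tested genes: 1 within females, 0 within males and 0 for the difference of the effect between sexes. For sex it called 2 under vehicle, 3 under zebularine and 3 over both treatments. Dnmt1 was 0.973 times its vehicle level under zebularine (95% interval 0.907 to 1.04), with a limma log2 difference of -0.04 and an SE of 0.05 (adjusted p = 0.846). Dnmt3a was 0.979 times its vehicle level (95% interval 0.907 to 1.06), with a limma log2 difference of -0.03 and an SE of 0.05 (adjusted p = 0.896). The log2 scale with a pseudocount understates folds of a gene as low as Dnmt3b, so its fold is given from limma-voom, 1.02 times (95% interval 0.861 to 1.20, adjusted p = 0.971), beside a limma log2 difference of 0.01 ± 0.10 (SE, adjusted p = 0.990).

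An exact permutation test of each gene alone, with treatment labels permuted within sex (two-sided, 400 regroupings, smallest possible p of 0.005), gave p = 0.225 for Dnmt1, 0.525 for Dnmt3a and 0.890 for Dnmt3b. Without vehicle female replicate 2, the lowest Dnmt1 library, the exact permutation p for Dnmt1 was 0.0200, at a log2 difference of -0.07. It was from 0.150 to 0.490 without any other single library, and limma's adjusted p without vehicle female replicate 2 was 0.729.

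Within females, 0 of the 3 genes passed, where limma called 0.0429% of all tested genes, and 0 had an unadjusted p under 0.05, where 5.4% did. Treated and vehicle females overlapped for each gene, while 9.21% of the tested genes did not overlap. The fold under zebularine was 0.972 for Dnmt1 (95% interval 0.879 to 1.07), 1.02 for Dnmt3a (0.915 to 1.13) and, by limma-voom, 0.969 for Dnmt3b (0.766 to 1.23). Each had a limma adjusted p of 1.00. The third zebularine female library lay far from the rest in a principal component analysis of all tested genes, with a first-component score of 50.4 where all others scored from -11.6 to 9.49. It held the lowest Dnmt1 and Dnmt3a and the highest Dnmt3b of its group. Without it the log2 difference in females was -0.01 for Dnmt1, 0.07 for Dnmt3a and -0.07 for Dnmt3b, and no gene of the 3 passed.

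Within males, 0 of the 3 genes passed, where limma called 0% of all tested genes (7.58% at an unadjusted p under 0.05, and 0 of the 3). Limma-voom also called 0% of all. Dnmt3a was 0.940 times its vehicle level (95% interval 0.845 to 1.05), with a limma log2 difference of -0.09 and an SE of 0.07 (adjusted p = 0.747, unadjusted p = 0.231). Dnmt1 was 0.975 times its vehicle level (0.882 to 1.08, limma adjusted p = 0.914). Dnmt3b was 1.07 times its vehicle level by limma-voom (0.842 to 1.35, adjusted p = 0.907). None of the 3 genes had groups without overlap in males, where 14.3% of the tested genes did.

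The treatment difference was not shown to vary with sex for any of the 3 genes. Limma called 0% of all tested genes for this difference of differences (4.05% at an unadjusted p under 0.05) and 0 of the 3. The male minus female difference of the zebularine effect was 0.00 ± 0.09 for Dnmt1, -0.12 ± 0.10 for Dnmt3a and 0.06 ± 0.20 for Dnmt3b on the log2(RPKM + 0.5) scale (SE, limma adjusted p = 0.999, 0.976 and 0.990). By limma-voom the Dnmt3b value was 0.14 ± 0.22 on the log2 scale (SE, adjusted p = 0.972), a ratio of 1.10 between the folds of the sexes (95% interval 0.789 to 1.54). Dnmt3a had means on opposite sides of vehicle in the sexes, higher in treated females and lower in treated males, with overlapping libraries in both.

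No difference between males and females passed the test for Dnmt1, Dnmt3a or Dnmt3b. Under vehicle, 0 of the 3 genes passed, where limma called 0.0123% of all tested genes. The male level was 0.985 times the female level for Dnmt1 (95% interval 0.891 to 1.09), 1.03 times for Dnmt3a (0.922 to 1.14) and, by limma-voom, 0.884 times for Dnmt3b (0.702 to 1.11), with a limma adjusted p of 1.00 for each. At an unadjusted p under 0.05, 0 of the 3 genes and 2.08% of all tested genes passed under vehicle. Males and females given vehicle overlapped for each of the 3 genes, while 6.63% of the tested genes did not.

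Under zebularine, 0 of the 3 genes passed, where 0.0307% of all tested genes did (11.1% at an unadjusted p under 0.05, and 0 of the 3). Dnmt3a was 0.947 times as high in treated males as in treated females (0.851 to 1.05, limma adjusted p = 0.705). Dnmt1 was 0.988 times as high (0.894 to 1.09, limma adjusted p = 0.937), and Dnmt3b 0.973 times by limma-voom (0.764 to 1.24, adjusted p = 0.948). All 3 overlapped, where 15.4% of the tested genes did not. Over both treatments, where limma called 0.0245% of all tested genes (7.3% at an unadjusted p under 0.05) and 0 of the 3 by either rule, the male level was 0.986 times the female level for Dnmt1 (0.919 to 1.06) and 0.986 times for Dnmt3a (0.914 to 1.06). It was 0.928 times for Dnmt3b by limma-voom (0.785 to 1.10, adjusted p = 0.857). The exact permutation test with sex permuted within treatment gave p = 0.550 for Dnmt1, 0.650 for Dnmt3a and 0.435 for Dnmt3b.

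**Figure D3:**
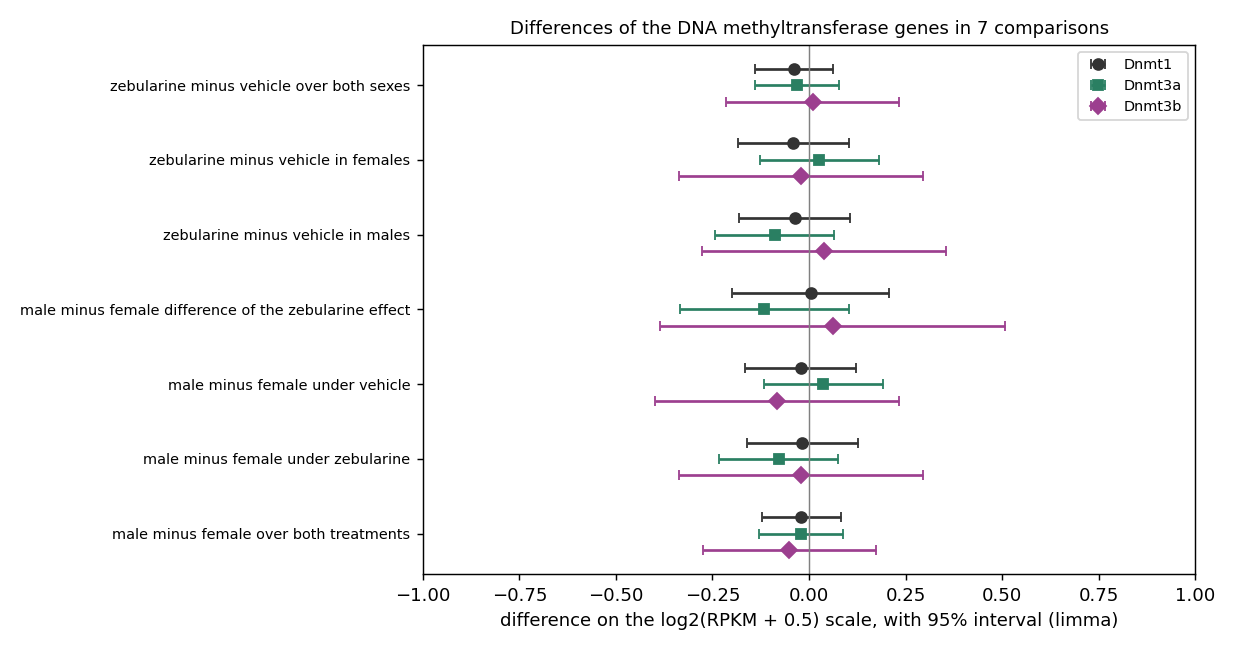
Differences on the log2(RPKM + 0.5) scale with 95% intervals from limma, for 3 genes in 7 comparisons; the vertical line marks no difference. All 21 intervals include 0, and those of Dnmt3b, on 134 to 246 reads per library, are the widest in each comparison.

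The balance between the enzymes' transcripts was compared within libraries, where scaling between libraries cancels. The Dnmt3a to Dnmt1 ratio of RPKM was 3.87 ± 0.391 in vehicle females, 4.05 ± 0.0940 in zebularine females, 4.02 ± 0.215 in vehicle males and 3.88 ± 0.110 in zebularine males (SD, n = 3 each). The ratio under zebularine was 1.01 times that under vehicle (two-sided exact permutation p = 0.885), and that of males 1.00 times that of females (exact permutation p = 1.00). The Dnmt3b to Dnmt1 ratio was 0.0908 ± 0.0123 and 0.0913 ± 0.0142 in vehicle and zebularine females, and 0.0836 ± 0.0170 and 0.0898 ± 0.00855 in vehicle and zebularine males (SD, n = 3 each). It was 1.04 times as high under zebularine (exact permutation p = 0.635) and 0.950 times as high in males (exact permutation p = 0.590). For Dnmt3a to Dnmt3b the exact permutation p was 0.725 for treatment and 0.605 for sex. These are 6 tests of ratios, with no p adjusted.

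No correlation between the levels of the 3 genes passed the test over all 12 libraries. Over the 12 libraries, on the log2(RPKM + 0.5) scale, Dnmt1 and Dnmt3a had r = 0.35 (permutation p = 0.266) and rho = 0.34 (permutation p = 0.274). Dnmt1 and Dnmt3b had r = -0.39 (permutation p = 0.216) and rho = -0.55 (permutation p = 0.0724), and Dnmt3a and Dnmt3b had r = -0.39 (permutation p = 0.207) and rho = -0.45 (permutation p = 0.149). Adjusted over the 3 pairs by Benjamini-Hochberg, each r had a p of 0.266, and the rho values had 0.274, 0.217 and 0.223. On deviations from the group means r was 0.31, -0.50 and -0.43 in the same order. Leaving out vehicle female replicates 1 and 3, the libraries farthest from the Dnmt1 median, gave r = 0.65 for Dnmt1 with Dnmt3a and -0.65 for Dnmt1 with Dnmt3b. The same 2 libraries were farthest from the Dnmt3a median, and without them r was -0.37 for Dnmt3a with Dnmt3b. In vehicle female replicate 1, Dnmt1 was high and Dnmt3a was the lowest of all libraries. Without this library alone, r was 0.75 for Dnmt1 with Dnmt3a (adjusted permutation p = 0.0248). The r of this pair over all 12 libraries, and whether it passed, thus depended on 1 library.

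Among tested genes with a mean of at least 1 RPKM, the gene whose log2 level followed each of the 3 most closely over the 12 libraries was found by Pearson correlation. It was ENSRNOG00000011132 for Dnmt1 (r = 0.92, mean 10.6 RPKM), ENSRNOG00000007034 for Dnmt3a (r = 0.96, mean 9.15 RPKM) and ENSRNOG00000036229 for Dnmt3b (r = 0.89, mean 3.80 RPKM on a mean of 12.4 reads). Each was the highest of 14370 or 14371 candidates over 12 libraries that fall into 4 groups and differ in depth, so a high r is built into the choice. Without zebularine female replicate 3 the 3 values were 0.91, 0.97 and 0.88.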

How the data were processed

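Each of the 12 libraries had 1 table, in which the authors deposited RPKM for 29516 Ensembl gene identifiers. Per the submitters' processing notes, TopHat, an aligner, was among the tools, with no version given. Read counter, strand setting, genome build and annotation belong to what is not given in the sources used here. Per the labels' protocols, Trizol was used for RNA and a standard Illumina procedure for libraries. Sample titles gave the groups and replicate numbers. Of the tests planned for counts and for RPKM, the latter was used.

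After scaling by depth, RPKM were whole multiples of 1 step, within 0.0001 of a read, in each of the 23427 genes with a value above 0. This is trivial for 1386 genes seen in a single library. For genes seen in very few libraries it is a weak check, since a fitting number of reads was searched for. The steps gave reads, depth and gene model lengths. Libraries of a group differed by more than counting noise, with a chi-square between 5.94 and 22.0 per degree of freedom (genes with 20 or more reads), and each was kept as its own replicate. This spread cannot show whether they stand for separate animals.

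Genes reaching 0.5 RPKM in 3 or more libraries, 16310 in number, were fitted as log2(RPKM + 0.5) with limma 3.58.1 (R 4.3.3, eBayes with trend) as 4 group means, with 7 two-sided comparisons. Intervals are limma's and hold at 95%. Single genes and ratios had exact permutation tests within strata, and correlations 100000 permutations. The fit was tested on simulated data. Other steps ran in Python 3.11.15 with numpy 2.4.6, pandas 2.3.3 and, for figures, matplotlib 3.10.9. The alternatives were other pseudocounts, filters and scalings, limma-voom on recovered reads, only the compared groups, a replicate block, array weights, and leaving out each library.

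The genes and lists were chosen with earlier results of these data known. Besides the 3 genes, only the gene most correlated with each is named. The lists of methylation pathway, cytidine analogue handling, proliferation and cell type marker genes are by symbol and are not analysed here, because the RefSeq table (GRCr8) matched 0 identifiers.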

Additional observations from a re-analysis of the deposited data

How the results depend on the processing

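None of the 21 differences of the 3 genes passed limma under any of 446 alternative values, where the adjusted p lay between 0.574 and 1.00 and the log2 difference between -0.18 and 0.14. The ends of that log2 range were Dnmt3b by limma-voom, for sex under vehicle and for the difference of the zebularine effect between the sexes. The filter of 1 RPKM removes Dnmt3b and gives no value for it. The sign of the difference changed in 28 of these values. With quantile normalization it was -0.024 for Dnmt3b for zebularine over both sexes (also in the exact permutation test), 0.010 for Dnmt1 and 0.050 for Dnmt3b for sex under zebularine. With array weights it was -0.012 for Dnmt3b for zebularine over both sexes and -0.0075 for Dnmt1 for the difference of the zebularine effect between the sexes. Leaving out 1 library at a time gave these ranges of log2 differences where a sign changed. For zebularine over both sexes, Dnmt3a -0.060 to 1.6e-05 and Dnmt3b -0.038 to 0.034. For zebularine in females, Dnmt3a -0.031 to 0.089 and Dnmt3b -0.068 to 0.028. For zebularine in males, Dnmt3b -0.055 to 0.088. For the difference of the zebularine effect between the sexes, Dnmt1 -0.024 to 0.057 and Dnmt3b -0.034 to 0.11. For sex under vehicle, Dnmt1 -0.074 to 0.0047, Dnmt3a -0.020 to 0.0996, Dnmt3b -0.13 to 0.013. For sex under zebularine, Dnmt1 -0.045 to 0.0035 and Dnmt3b -0.070 to 0.026. For sex over both treatments, Dnmt3a -0.050 to 0.011. The log2 ratio of Dnmt3a to Dnmt1 ranged from -0.033 to 0.035 for treatment and from -0.043 to 0.025 for sex. The log2 ratio of Dnmt3b to Dnmt1 ranged from -0.028 to 0.12 for treatment and from -0.13 to 0.016 for sex. The log2 ratio of Dnmt3a to Dnmt3b ranged from -0.12 to 0.037 for treatment and from -0.016 to 0.14 for sex. The Dnmt1 difference in the exact permutation test of treatment ranged from -0.065 to -0.025, with an exact permutation p of 0.0200 to 0.490. The correlation of Dnmt1 and Dnmt3a ranged from 0.14 to 0.75, with adjusted permutation p from 0.0248 to 0.687.

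Same-numbered libraries were not treated as paired. Their deviations from group means correlated between -0.30 and 0.30, and 4 of 12 libraries correlated best with their own number outside their group. With 3 libraries per group these values cannot decide whether the numbers mark a pairing. With the replicate block the differences of the 3 genes were the same by construction (Dnmt1 -0.039 for zebularine over both sexes, limma adjusted p = 0.862). Limma called 9 of all tested genes for that comparison in place of 66, and 1 in place of 7 in females. It called 3 in place of 5 for sex under zebularine and 3 in place of 4 for sex over both treatments. For sex under vehicle the calls rose, with 1 gene higher and 2 lower in males in place of 2 lower. Over all alternatives the calls among all tested genes ranged from 9 to 111 for zebularine over both sexes, 0 to 56 in females, 0 to 15 in males, 0 to 2 for the difference between the sexes, 1 to 5 for sex under vehicle, 1 to 17 for sex under zebularine and 3 to 7 for sex over both treatments. Dnmt3b had 134 to 246 reads per library, at which counting error alone gives a coefficient of variation of 7.21%, against 11.2% observed.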
